A study of Mytilus galloprovincialis with 16 samples.

Results

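In mussels the digestive gland takes up and stores nutrients, and reserves drawn from it are used while the gonad builds gametes. Male and female mussels share this organ, so a transcript that differs between the sexes here is a difference in a non-reproductive tissue whose demands change with the reproductive cycle. On a 2-colour array the RNA of a female and a male are labelled with different dyes and compete for the same spot, so that each spot gives a ratio between the sexes and a signal for each of them.

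Of 1920 cDNA clones spotted on the array, 25 were selected on their female over male ratio, which was high at the first gonad stage. They were chosen by the deposited log2 ratios, averaged over the 2 spots of a clone and the 4 arrays of a stage: at least 0.4 at stage 1, above -0.45 at stage 2, and between -0.7 and 0.5 at stage 3. Log2 ratios are given here as female over male, the same sign as the deposited table and the opposite of the study's own male over female convention. The stage 1 limit alone was passed by 75 clones. Of these, 37 failed the stage 2 limit and 33 failed a stage 3 limit, 20 of them failing both. The ratios of stages 1 to 3 therefore chose the clones and are described without a test, while the stage 4 ratio was not used. Just inside and just outside the limits, the values were 0.42 and 0.39 at stage 1, -0.36 and -0.47 at stage 2, 0.37 and 0.52 at the upper limit of stage 3, and -0.68 and -0.76 at the lower one.

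The animals were wild *Mytilus galloprovincialis* from Bizerta Lagoon in Tunisia, kept under no treatment. Stage 1 (early, November), stage 2 (development, January), stage 3 (ripe, February) and stage 4 (spawning, March) had 4 arrays each, every one hybridised with the digestive gland RNA of 1 female against that of 1 male. The sexes were told apart, and the stage set, by histology of the mantle, and no age of the animals was found in the labels or methods. Stage, month of sampling and hybridisation group cannot be told apart, the year given for the January animals differs between the labels and the study's methods, and in bulk tissue fewer cells of a type and less RNA per cell cannot be told apart either. Clones carry the array's own identifiers, because neither the files nor the tables used here pair them with genes, so that the roles of the clones are not described.

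Across the whole series, between 28.8% and 56.7% of the clone spots of an array lay above background (a spot counted when its foreground exceeded the median local background by 2 SD), and duplicate spots correlated between 0.436 (stage 3 replicate 4) and 0.930 in their ratios. The difference between stage 4 replicates 2 and 4 had 0.503 times the variance that duplicate spots give, less than sampling noise, and any other 2 arrays of the same stage gave 1.67 to 12.7 times that variance. Both were averaged and counted as 1 sample, leaving n = 3 at stage 4 and n = 4 at the other stages. The mean ratios of stages 1 and 2 ran against each other over all clones (r = -0.589), and each of the 16 pairings of an array from one of these stages with an array from the other was below 0, although the dyes in the labels settle the direction of each array. With the stage 2 ratios turned, the same limits chose 41 clones, 24 of them among the 25.

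The deposited stage 1 ratios of the 25 clones ran from 0.42 to 0.76, or 1.34-fold to 1.69-fold, with a median of 0.50. Ratios recomputed from the scanner intensities lay between 0.42 and 0.80 with a median of 0.52, and under the same limits they chose 28 clones, all 25 among them. All values below are these recomputed ratios. The largest deposited values belonged to Myt01-009E12 and Myt01-020D09, and these were 2 different cases.

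Myt01-009E12 was measured well at stage 1, above background on all 4 arrays in both sexes. Its female signals, on the log2 scale, were 10.31, 9.57, 9.86 and 10.86, and its male signals 8.11, 7.96, 10.77 and 10.58, on replicates 1 to 4. The females thus lay within a narrow band, while the males split into 2 low and 2 high arrays, the high ones overlapping the females. The ratios were accordingly 2.20, 1.62, -0.91 and 0.28, a mean of 0.80 ± 1.39 (SD, n = 4), with females higher on 3 of 4 arrays. Both spots of replicate 1 gave the difference (2.09 and 2.31).

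At stage 1, Myt01-020D09 was above background on 1 array only, in both sexes. On that array, stage 1 replicate 2, its ratio was 2.44, against 0.25, 0.02 and 0.07 on replicates 1, 3 and 4. The mean of 0.69 ± 1.17 (SD, n = 4) thus came from a single array. Within that array it came from a single spot, since the 2 spots read 0.12 and 4.76. The female signal there was 10.40, and 5.91 to 6.17 on the other arrays.

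The rest of the 25 also varied between arrays. Over all 25, stage 1 ratios had SDs between 0.22 and 1.39, with a median of 0.55 against 0.25 over all clones. The ratio was above 0 on all 4 arrays for 14 clones. Over the 25 clones, the median of the highest array was 1.22 and the median of the mean of the other 3 was 0.29. The other 3 arrays still averaged 0.4 or more in only 4 clones, namely Myt01-011C05, Myt01-009F07, Myt01-012D12 and Myt01-009F02, named here after their values were seen. Those averages were 0.50, 0.49, 0.47 and 0.43. At the other end, 6 clones averaged under 0.2 on the other 3 arrays and 2 of these, Myt01-008D05 and Myt01-007B05, averaged -0.03 and -0.13. When the choice was repeated without each of the 4 stage 1 arrays in turn, 4 of the 25 were chosen every time, and the limits then chose 36, 39, 37 and 48 clones without replicates 1, 2, 3 and 4.

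**Figure D1:**
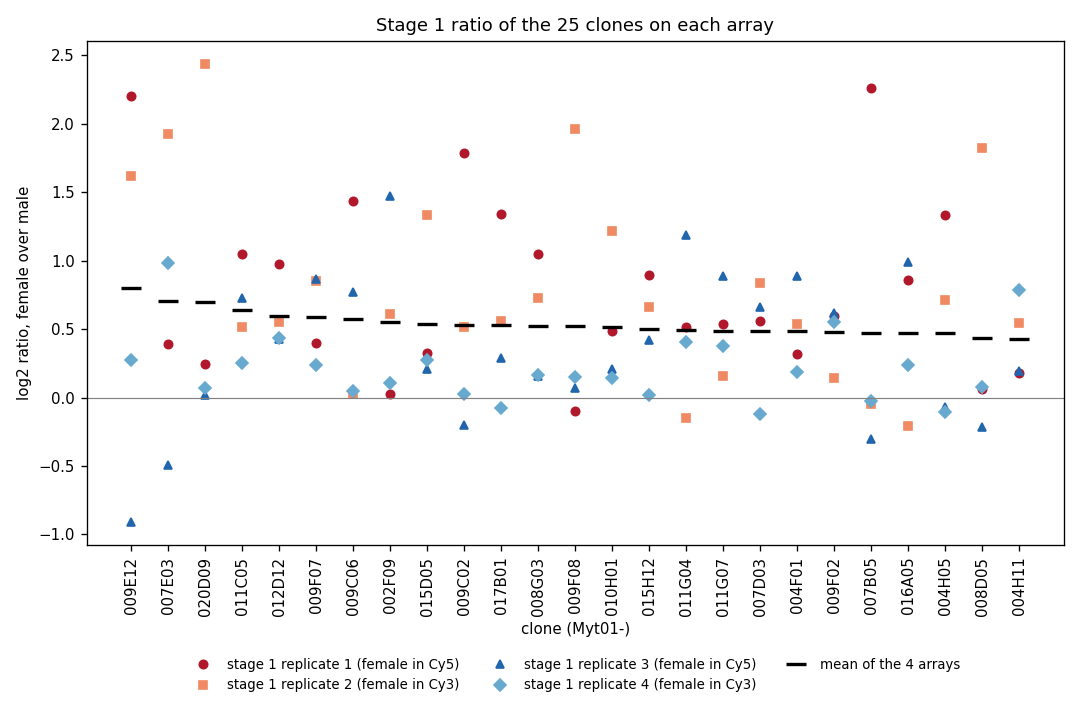
Log2 female over male ratio at stage 1 (vertical axis) of the 25 clones (horizontal axis, ordered by their mean), with 1 symbol per array and a bar at the mean of the 4 arrays. Single arrays stand far above the others in several clones, such as 2.44 in Myt01-020D09 and 2.26 in Myt01-007B05, while the 4 arrays of Myt01-009F02 and Myt01-012D12 lie closer together.

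The arrays themselves contributed unequally. The median ratio of the 25 clones was 0.56 on replicate 1, 0.61 on replicate 2, 0.29 on replicate 3 and 0.16 on replicate 4, whereas the medians of all clones on these arrays lay between -0.01 and 0.03. Replicates 1 and 2 held 8 and 7 ratios above 1, replicate 3 held 2 and replicate 4 held 0. The highest of a clone's 4 values fell on replicate 1 for 10 clones, on replicate 2 for 7, on replicate 3 for 7 and on replicate 4 for 1. Females were labelled with Cy5 on replicates 1 and 3 and with Cy3 on replicates 2 and 4. The mean ratio was above 0 in both orientations for 21 of the 25 clones and above 0.4 in both for 4.

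Agreement between the 2 spots of a clone separated the clones further. On their highest array, 19 clones had both spots above 0.4, and the remaining 6 had 1 spot over 2 and the other under 0.3. Such pairs included -0.08 and 4.60 in Myt01-007B05, and 0.10 and 3.55 in Myt01-008D05. At stage 1, 8% of the spot pairs of the 25 clones lay more than 1 apart in the deposited table, against 2.12% over all clones. With such pairs left out, a choice added after seeing the data, the limits chose 18 clones, 17 of them among the 25.

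Not every reading was above background. At stage 1 the 25 clones were above background in 72 of 100 female readings and in 59 of 100 male readings, against 31.7% and 35.4% over all clones. In later stages the female count was 64, 46 and 47 of 100, against 51.9%, 37.5% and 37.4% over all clones, and the male count 46, 44 and 49, against 33.4%, 39.5% and 40.6%. Counts above background take each array singly. The averaged stage 4 replicates 2 and 4 therefore enter separately here and in the stage 4 counts below. In 4 clones the male was above background on no stage 1 array, so that only a bound is given for the ratio. The bound was 1.40-fold higher in females for Myt01-007D03, 1.21-fold for Myt01-002F09, 1.17-fold for Myt01-007B05 and 1.11-fold for Myt01-017B01. In the last 3 the female mean was raised by 1 spot of 1 array, and on that array the female of Myt01-002F09 was itself not above background. The bounds were not recomputed without it. A bound sets the mean of the bright sex against the lowest signal, array by array, of clones above background or the dim clone's own signal where that was higher. That lowest signal is not a detection limit, so that a bound can be too high. For Myt01-007D03 the bound equals the plain ratio, whose SD was 0.42, with -0.12 on stage 1 replicate 4. Only Myt01-011C05, Myt01-011G04 and Myt01-011G07 were above background in both sexes on all 16 arrays.

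After stage 1 the median ratio of the 25 clones came down to near 0. It was -0.12 at stage 2 and -0.14 at stage 3, with 6 and 8 clones above 0, and the limits at both stages cut off part of the range. Within stage 2 the median of the 25 was 0.04 and 0.11 on replicates 1 and 2, whose females carried Cy3. On replicates 3 and 4, with the female in Cy5, it was -0.09 and -0.17, and the cause was not tested. Over all clones the medians of the 4 stages were 0.02, -0.04, -0.01 and 0.02, which the loess normalisation holds near 0. With the stage 2 ratios turned, the stage 2 median would be 0.12 with 19 clones above 0. In the direction of the labels, females were higher on all 4 arrays of stage 2 in 2 clones, Myt01-009C02 (0.25 ± 0.15, SD, n = 4) and Myt01-012D12 (0.58 ± 0.64), and males in 1, Myt01-009F08 (-0.03 ± 0.01). Turned, these become 2 clones higher in males and 1 higher in females. At stage 2, Myt01-009F08 was above background on 1 female and 0 male arrays, and Myt01-009C02 on 2 female and 1 male arrays. No sex difference is therefore read from the stage 2 ratio of either. At stage 3, Myt01-009F08 was the 1 clone with females higher on all 4 arrays. The male was above background on none of them and the female on 1, so that no fold is read from its signals. Males were higher on all 4 arrays of stage 3 in 4 clones, Myt01-012D12, Myt01-015H12, Myt01-011G07 and Myt01-015D05, with means of -0.55, -0.43, -0.14 and -0.14. These clones were singled out after their values were seen, and the share of all clones with such agreement at stage 2 or 3 was not computed.

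**Figure D2:**
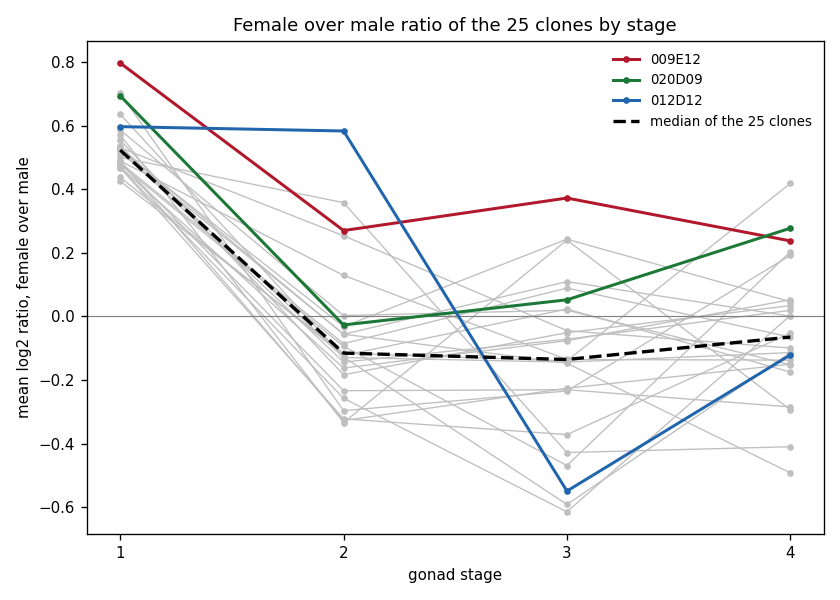
Mean log2 female over male ratio (vertical axis) of the 25 clones at the 4 gonad stages (horizontal axis), 1 line per clone, with 3 clones in colour and the median as a dashed line. The median falls from 0.52 at stage 1 to -0.12 at stage 2 and stays at -0.14 and -0.07, and Myt01-012D12 goes from 0.58 at stage 2 to -0.55 at stage 3.

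The stage 4 ratio asks whether the clones chosen at the first stage differed between the sexes at spawning, on arrays the choice did not use. Over all clones, however, stage 4 replicates 2 and 4 correlated at 0.88 and 0.89 with stage 3 replicate 2, and at 0.74 to 0.78 with stage 3 replicates 1 and 3. With stage 4 replicates 1 and 3 they correlated at -0.15 to -0.11. This averaged pair cannot be taken as independent of the stage 3 limits, and the cause was not tested. None of the 25 clones passed the test. Their median was -0.07, with 11 clones above 0 and 14 below, beside 0.02 over all clones. With limma and Benjamini-Hochberg adjustment over 1920 clones at a threshold of 0.05, 0 of the 25 were called higher or lower, and 0% of all clones were called in each direction. The smallest adjusted p among the 25 was 0.814, and 0.170 over all clones. At an unadjusted p under 0.05, 1 of the 25 was higher and 1 lower, against 1.93% higher and 2.19% lower over all clones.

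Females had the highest stage 4 ratios in Myt01-004H11 and Myt01-020D09. Myt01-004H11 read 0.57 on replicate 1, -0.01 on replicate 3 and 0.69 on the averaged replicates 2 and 4, a mean of 0.42 ± 0.38 (SD, n = 3; unadjusted p = 0.0441 and adjusted p = 1.000 in limma). Its ratio was thus above 0 on 2 of 3 samples. Myt01-020D09 averaged 0.28 ± 0.25 with all 3 samples above 0 (adjusted p = 1.000), and was above background in the female on 1 of 4 arrays and in the male on 0.

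Males had the highest stage 4 values in Myt01-010H01 and Myt01-015H12. In Myt01-010H01 the ratio was -0.25, -0.53 and -0.69 on replicate 1, replicate 3 and the averaged pair, a mean of -0.49 ± 0.22 (SD, n = 3; unadjusted p = 0.0115 and adjusted p = 0.814 in limma). All 3 samples lay below 0, yet each sex was above background on only 2 of 4 arrays. Myt01-015H12, above background in both sexes on all 4 arrays of the stage, averaged -0.41 ± 0.39 with all 3 samples below 0 (adjusted p = 1.000).

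The stage 4 ratio changed sign with the dye orientation in 11 of the 25 clones, and in 57.5% of all clones. Females carried Cy3 on replicates 1 and 3 and Cy5 on the averaged pair. In Myt01-012D12, Myt01-016A05 and Myt01-011C05, all above background on every stage 4 array and named after their values were seen, the ratio was 0.38, 0.49 and 0.26 with the female in Cy3, and -1.13, -0.96 and -0.87 with the female in Cy5. Within stage 4, dye orientation and individual animals cannot be told apart, since each orientation held other animals. Over all clones the averaged arrays correlated at 0.74 to 0.78 with stage 3 replicates 1 and 3, whose females carried Cy3. With stage 3 replicates 2 and 4, whose females carried Cy5, they correlated at 0.88 and 0.89 and at 0.11 and 0.09. The cause of the sign change was not tested.

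The signal of each sex was followed over the 4 stages as well. The median female signal of the 25 clones on the log2 scale was 7.89 at stage 1, and 6.78, 6.80 and 6.91 at stages 2, 3 and 4. The median male signal was 7.32 at stage 1, and 6.94, 6.98 and 7.14 afterwards. Over all clones neither median left the range of 6.65 to 6.69, as the normalisation within and between arrays makes the arrays alike. Females lay below their stage 1 signal in 21, 23 and 21 clones at stages 2, 3 and 4, against 55.8%, 51.1% and 50.1% of all clones. Males did so in 14, 13 and 14, against 49.0%, 50.1% and 52.5%. Between stages 1 and 2 the female signal was lower by more than 1 on the log2 scale in 8 clones and higher by more than 1 in 2, against 4.06% and 4.90% of all clones. The male signal was lower by more than 1 in 4 and higher by more than 1 in 2, against 3.54% and 3.80%. Both signals at stage 1 entered the choice, and on some arrays that carried it the male signal was raised as well, as in Myt01-020D09, with 7.96 on stage 1 replicate 2 and 5.89 to 5.93 on the other arrays of the stage. Neither sex's fall is therefore independent of the choice.

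**Figure D3:**
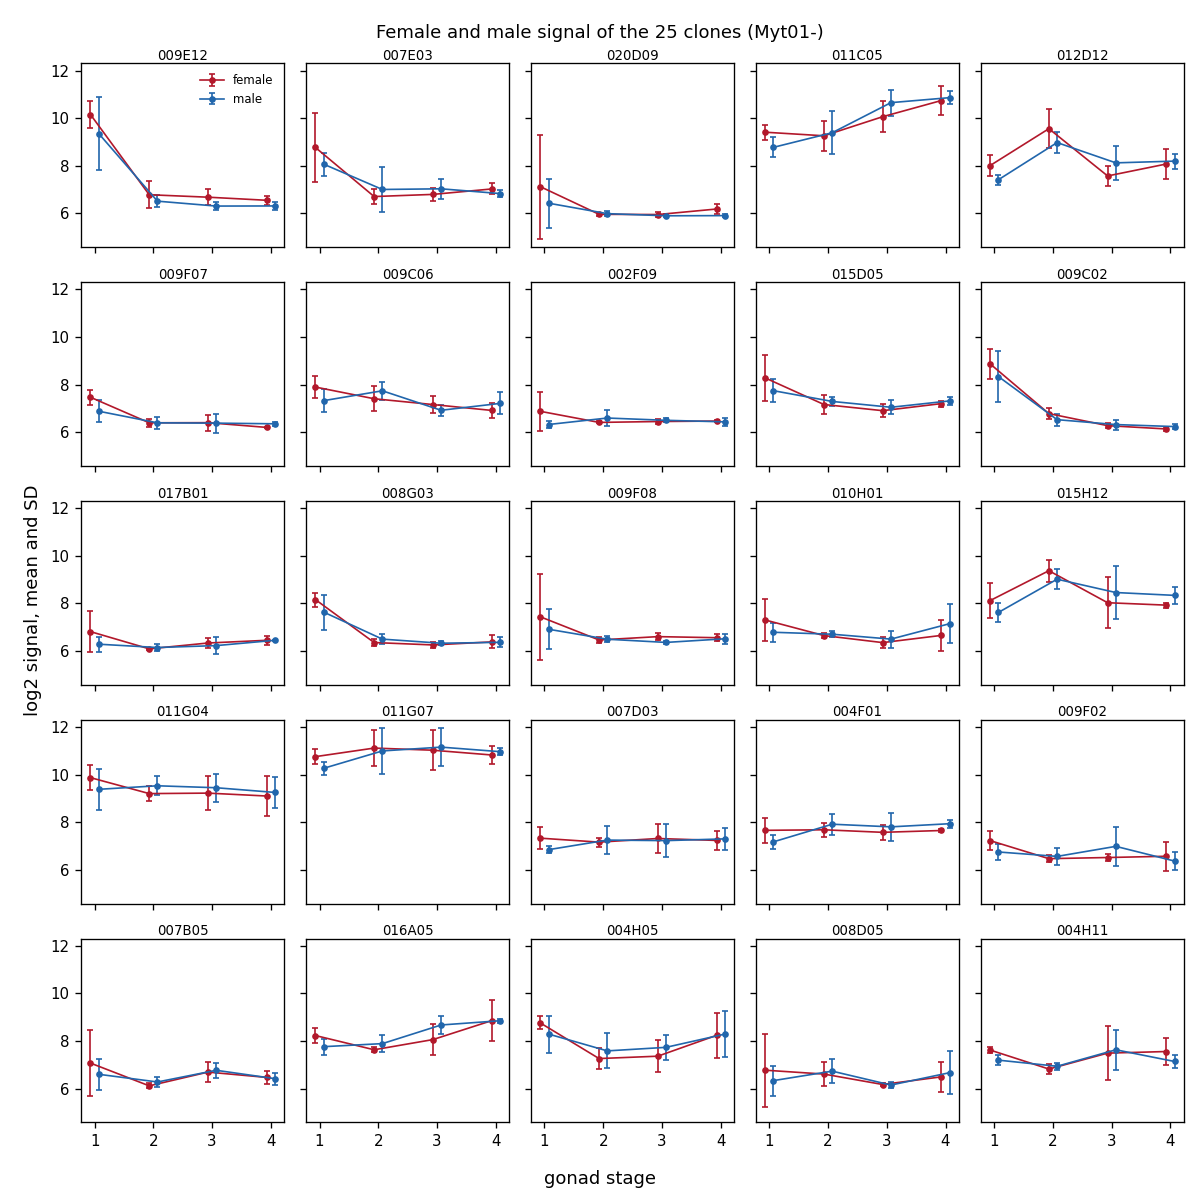
Log2 signal (vertical axes, mean and SD) of the female (red) and male (blue) digestive gland at gonad stages 1 to 4 (horizontal axes) for each of the 25 clones, with n = 3 at stage 4 and n = 4 before it. Myt01-009E12 and Myt01-009C02 fall in both sexes after stage 1, Myt01-012D12 and Myt01-015H12 peak in both at stage 2, and Myt01-011C05 ends near 10.74 in females and 10.86 in males.

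To ask whether the clones changed between stages apart from sex, the mean of both sexes' log2 signals was compared between consecutive stages. This mean is not the ratio used for the choice, although it comes from the same arrays, and a high reading at stage 1 enters both, so that the counts below are not independent of the choice. Between stages 1 and 2 it fell in 5 of the 25 clones and rose in 1 (limma, adjusted p under 0.05), where 4.01% of all clones fell and 3.23% rose. The median change of the 25 was -0.43 against -0.01 over all clones, and 18 of the 25 lay below 0. All stage 2 arrays lay below all stage 1 arrays in 6 of the 25 and above them in 2, against 7.0% and 8.4% of all clones.

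Myt01-009E12 had the largest fall of the 25. Its mean signal was 9.21, 8.76, 10.31 and 10.72 on the stage 1 arrays and 7.04, 6.92, 6.21 and 6.41 on those of stage 2. The groups did not overlap, and the difference was -3.10 ± 0.35 (SE), or 8.60-fold (adjusted p = 0.000816). Females went from 10.15 to 6.78, 6.68 and 6.55 over the 4 stages and males from 9.35 to 6.51, 6.31 and 6.31. By stage 4 neither sex was above background on any array, and the bound on the fall since stage 1 was 10.9-fold in females and 7.21-fold in males.

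A like course was measured for Myt01-009C02. The stage 1 arrays read 8.26, 7.77, 8.84 and 9.53 in mean signal and the stage 2 arrays 6.91, 6.76, 6.38 and 6.55. Again no stage 2 array reached a stage 1 array, with a difference of -1.95 ± 0.28 (SE), or 3.87-fold (adjusted p = 0.00262). Both sexes were above background on all 4 stage 1 arrays and on none at stages 3 and 4. The bound on the fall from stage 1 to stage 4 was 4.91-fold in females and 3.52-fold in males.

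The other 3 clones that fell, named because they are so few, were Myt01-007E03, Myt01-008G03 and Myt01-009F07. Their mean signal fell by 1.56, 1.47 and 0.78 on the log2 scale (adjusted p = 0.0327, 0.00262 and 0.0308). Myt01-008G03 was above background on 4 female and 3 male arrays at stage 1 and on none at stages 3 and 4, and its 4 stage 1 arrays, from 7.33 to 8.34, all lay above its stage 2 arrays, from 6.21 to 6.54. In Myt01-007E03 the 2 stages overlapped, with 7.10 on stage 1 replicate 3 and 7.70 on stage 2 replicate 3. Myt01-009F07 was above background in males on 1 stage 1 array and none later. Both calls were lost when single arrays were left out, that of Myt01-007E03 without stage 1 replicate 1, 2 or 4 or stage 2 replicate 1, 2 or 4 (adjusted p = 0.0638 to 0.0922), and that of Myt01-009F07 without stage 1 replicate 2, 3 or 4 or stage 2 replicate 1, 3 or 4 (adjusted p = 0.0504 to 0.0871).

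In 3 of these clones the males of stage 1 divided in the same way, which was noticed after the values were seen. The share of all clones with such a division was not computed. The male signals on replicates 1 and 2 were 8.11 and 7.96 in Myt01-009E12, 7.37 and 7.51 in Myt01-009C02 and 6.81 and 7.21 in Myt01-008G03. On replicates 3 and 4 they were 10.77 and 10.58, 8.94 and 9.52, and 8.25 and 8.25. The higher ratios of these clones were therefore on the arrays whose male was low, and the females of replicates 1 and 2 were not above those of replicates 3 and 4 in Myt01-008G03 (7.86 and 7.94 against 8.41 and 8.42). By the study's methods each array held another animal of each sex. By the digits of their identifiers Myt01-009E12 and Myt01-009C02 came from the same source plate, and they were printed in the same block of the array. Myt01-008G03 came from another plate and block. Myt01-009C06 shared the plate and block of Myt01-009E12 and Myt01-009C02. Its mean signal differed by -0.04 between stages 1 and 2 (limma, adjusted p = 0.938). This clone was named after its values were seen, and whether plate or block bears on these signals was not tested.

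Myt01-012D12 was the clone that rose. Its mean signal read 8.14, 7.66, 7.37 and 7.66 at stage 1 and 9.91, 9.57, 8.77 and 8.81 at stage 2. All stage 2 arrays lay above all stage 1 arrays, a difference of 1.56 ± 0.30 (SE), or 2.94-fold (adjusted p = 0.0102). The rise was 1.55 in females and 1.56 in males. Myt01-015H12 had a difference of 1.33 that missed the threshold (adjusted p = 0.0876).

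**Figure D4:**
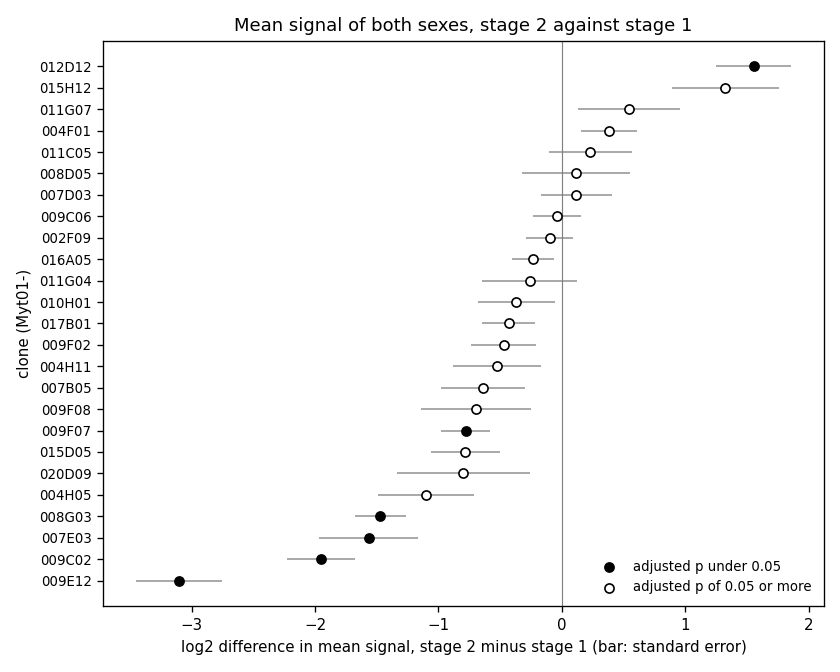
Difference in mean log2 signal of both sexes between stage 2 and stage 1 (horizontal axis, bars are standard errors of the limma fit) for the 25 clones (vertical axis), filled where the adjusted p was under 0.05. Filled points are 5 clones that fell, from -3.10 in Myt01-009E12 to -0.78 in Myt01-009F07, and Myt01-012D12 at 1.56.

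Each sex was also tested alone, an alternative added after seeing the data. In the males 3 of the 25 fell, Myt01-009E12, Myt01-009C02 and Myt01-008G03, and Myt01-012D12 rose, where 2.76% of all clones fell and 1.35% rose. The male differences were -2.84, -1.81, -1.14 and 1.56 (limma, adjusted p = 0.0127, 0.0236, 0.0380 and 0.0171). In the females 6 fell and 1 rose, where 5.21% of all clones fell and 6.67% rose, and nothing is read from either count, since both signals entered the choice.

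From stage 2 to stage 3, 1 of the 25 rose in mean signal and 1 fell, where 3.44% of all clones rose and 4.27% fell, shares near those of the 25. Myt01-012D12 fell back by 1.42 ± 0.30 (SE) on the log2 scale (limma, adjusted p = 0.00811), with stage 3 arrays at 7.26, 8.51, 8.09 and 7.53. The signal fell by 1.98 in females (adjusted p = 0.00388), and the male difference was -0.85 (adjusted p = 0.203), and whether these falls differ between the sexes was not tested, since both ratios entered the choice. Myt01-016A05 rose by 0.60 ± 0.17 (SE, adjusted p = 0.0412), from 7.72, 7.95, 7.86 and 7.50 to 8.32, 8.35, 8.22 and 8.56 with no overlap. Its call was lost without any 1 of stage 2 replicates 1, 3 and 4 or of the 4 stage 3 arrays (adjusted p = 0.0590 to 0.130), and with the replicate number as a block (adjusted p = 0.0674). Its ratios at stage 3 were -1.26, -0.48, -1.45 and 0.74, with males higher on 3 of 4 arrays.

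From stage 3 to stage 4 no clone of the array was called (0% in each direction, limma, smallest adjusted p = 1.000). At an unadjusted p under 0.05, 1 of the 25 rose and 0 fell, where 1.56% of all clones rose and 1.67% fell. The highest difference among the 25 was 0.71 in Myt01-004H05 (adjusted p = 1.000) and the lowest -0.29 in Myt01-007B05 (adjusted p = 1.000). Myt01-004H05 had a female signal of 8.76 ± 0.27 (SD, n = 4) at stage 1, stood at 7.26 and 7.36 at stages 2 and 3 and at 8.23 ± 0.93 (n = 3) at stage 4, with 8.29, 7.58, 7.73 and 8.29 in males. Its stage 4 signals were 8.83 and 8.71 in females and 8.77 and 8.92 in males on replicates 1 and 3. On replicates 2 and 4 they were 7.17 and 7.14 in females and 7.17 and 7.16 in males, with neither sex above background. The stage 4 means thus lie between unlike readings.

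The 3 clones measured above background throughout took courses of their own. Myt01-011C05 had ratios of 1.05, 0.51, 0.73 and 0.25 at stage 1 and of -1.08, -0.74, -1.07 and 0.52 at stage 3, so that females were higher on every stage 1 array and males on 3 of 4 stage 3 arrays. Its female signal averaged 9.41, 9.26, 10.06 and 10.74 over the stages and its male signal 8.77, 9.39, 10.65 and 10.86, and its mean signal differed by 1.04 between stages 2 and 3 (limma, adjusted p = 0.0857). Myt01-011G07 stayed between 10.75 and 11.11 in females and between 10.26 and 11.15 in males. Myt01-011G04 stayed between 9.10 and 9.87 in females and between 9.25 and 9.53 in males.

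Source plates were read from the digits of the clone identifiers, with 96 clones on each. The 25 clones came from 12 of the 20 plates so read and 11 of the 16 print blocks. Plate 9 gave 6 of them, plates 4, 7 and 11 gave 3 each, and no other plate gave more than 2.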

How the data were processed

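Digestive gland RNA of single mussels was hybridised in pairs to 16 two-colour cDNA arrays (4 stages, 4 arrays each, dyes exchanged between arrays). The deposited scanner files hold spot intensities and local backgrounds, which the authors read with GenePix. The deposited value table holds log2 ratios per spot, which the authors made with limma (offset background correction and loess, version not stated), and correlated at 0.930 to 1.00 with ratios recomputed here, in the same direction. No depth is defined for arrays, and their number limits the precision.

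Intensities were background-corrected (normexp, offset 50), loess-normalised within arrays on clone spots only and, for signals, Aquantile-normalised between arrays with limma 3.58.1 in R 4.3.3. These steps bring the medians over all clones close together on every array, so that those medians are no independent contrast. The 2 spots of a clone were averaged. Blank and alignment spots were left out. The ratio at stage 4 and the mean signal between consecutive stages were fitted over all 1920 clones with 1 coefficient per stage (15 samples, 11 residual degrees of freedom), tested two-sided with moderated statistics and Benjamini-Hochberg adjustment, and checked on simulated data. By the study's methods the arrays held different animals, and the averaged pair of stage 4 was counted as 1 sample. The p-values measure the spread between arrays, in which animal pairs and dye orientation are mixed. Over all clones, stage 2 ratios correlated at 0.65 and 0.67 between arrays of the same dye orientation. Between orientations they correlated at -0.08 to 0.24.

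The clones, lists and tests were chosen with earlier results of these data known. Clones were named by rule: the 2 largest stage 1 ratios, the 2 highest and 2 lowest stage 4 ratios, and the 2 that rose and 2 that fell most among those called in each mean signal comparison (or the highest and the lowest where none was called), with others named as chosen after their values were seen. Keyword lists of gene groups and of other cell types could not be applied without gene names. Replicate numbers did not pair the arrays. The alternatives were other background corrections, normalisations, filters, weights, blocks and left-out arrays.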

Additional observations from a re-analysis of the deposited data

Results flagged for a closer look

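In 6 of 78 groups of 4 arrays examined (ratio and mean signal at stages 1 to 3 of 13 named clones), 1 array stood apart from the other 3 by more than Dixon's 95% limit, and chance gives about 1 in 20. The clones were chosen by some of these values, and ratio and mean signal share arrays, so the count is not read against that share. Myt01-020D09 on stage 1 replicate 2 had a ratio of 2.44 against at most 0.25 on the others, and a mean signal of 9.18 against at most 6.05. Myt01-007B05 on stage 1 replicate 1 had a ratio of 2.26, the next being -0.03. Myt01-004H11 had a mean signal of 7.01 on stage 2 replicate 1, against 6.82 to 6.84. Myt01-004H05 had 6.60 on stage 2 replicate 2, against 7.59 or more. Myt01-009E12 had a ratio of -0.12 on stage 3 replicate 4, against 0.48 to 0.59, and that array had the lowest duplicate correlation of the series. In Myt01-020D09 and Myt01-007B05 a single spot carried the value. The cause was not tested in any of them.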

How the results depend on the processing

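The count of clones chosen was within 1.5 times of 25 under 12 of 15 alternatives. It was 41 with the stage 2 ratios turned, and leaving out 1 array gave 21 to 48, with 16, 16, 20 and 24 of the 25 kept without stage 1 replicates 1, 2, 3 and 4. For the fall or rise between stages 1 and 2, 27 of 28 alternatives stayed within 1.5 times of 6 calls. Without clones that were mostly below background, 13 of the 25 were tested and 3 called, since 4 of the 5 clones that fell were not among them. Leaving out 1 array gave 4 to 7 calls. Myt01-009E12, Myt01-009C02, Myt01-008G03 and Myt01-012D12 kept direction and call wherever they were tested, with adjusted p up to 0.0127, 0.0236, 0.0380 and 0.0376. Myt01-007E03 and Myt01-009F07 lost the call under 10 and 9 of them. Median centring and print-tip loess leave the mean signal untouched.

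Between stages 2 and 3, calls numbered 1 under plain subtraction, quantile normalisation, the replicate block and in females alone, and 0 with the B statistic over 0 and in males alone. Leaving out 1 array gave 1 to 3 calls, with 1 without stage 2 replicate 1 or 4 or stage 3 replicate 1, 2 or 4. Myt01-012D12 lost its call with the B statistic and in males alone, and Myt01-016A05 lost its call under 13 of 28 alternatives. Stage 4 ratios gave 0 calls except with array weights, where Myt01-010H01 was called lower (-0.46, adjusted p = 0.0450, 1 call, range of adjusted p over its alternatives 0.0450 to 1.000), and the median of the 25 ran from -0.13 to 0.01. Between stages 3 and 4 every alternative gave 0. Same-numbered arrays of different stages correlated between -0.591 and 0.406 in their deviations, so numbers pair nothing. With the replicate block, calls were 0, 5, 1 and 0 in the 4 comparisons, in the order ratio at stage 4 and mean signal between stages 1 and 2, 2 and 3, and 3 and 4. Array signals near background limit every value for the dim clones.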
